A study of Mus musculus with 9 samples.

Results

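The genes described here encode the nuclear subunits of respiratory complex I in mouse heart. They were chosen by symbol alone: Nduf, then one of the letters a, b, c, s or v, then a number and nothing more. The rule found 36 of the 15779 genes in the deposited tables. All 36 were present in each of the 3 full comparison tables and passed the filter on low values in every comparison. Of these, 7 encode core subunits, 28 encode accessory subunits, and Ndufa4, which carries the family name, is now counted as a subunit of complex IV.

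Messenger RNA of adult hearts of strain C57BL/6J was sequenced in 9 libraries, 3 in each of 3 groups. Wild-type mice given saline were the controls. Mutant mice carried Mybpc3 R946X, a premature stop codon in the gene of cardiac myosin-binding protein C, on both alleles (Mybpc3R946X/R946X), and were given either saline or an agent labelled high-dose-exABE8e. The label is not spelled out. The series describes adenine base editors, enzymes that change an adenine base without cutting both DNA strands, carried by the viral vector AAV9 and expressed in cardiomyocytes. The labels give no sex, exact age or dose, and do not say how many animals a library holds. The tissue was 20 to 30 mg of whole heart, which holds other cells than the cardiomyocytes that the vector addresses.

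Complex I takes electrons from NADH and passes them to ubiquinone while it pumps protons out of the mitochondrial matrix. Its peripheral arm has an N module, where NADH is oxidised, and a Q module, where ubiquinone is reduced. Its membrane arm has proximal and distal pump modules. The core subunits hold the flavin, the iron-sulfur clusters and the proton channels, and the membrane part of the core is encoded by mitochondrial DNA. Accessory subunits surround this core and are needed for its assembly and stability. The heart depends on this chain for most of its ATP, and the nuclear genes of the chain are known targets of the factors NRF1, GABP (an ETS factor), YY1 and the oestrogen-related receptors.

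Promoter sequences from RefSeq (GRCm38.p6) were available for 32 of the 36 genes, in 34 windows of 300 bases that run from 250 before to 50 after the transcription start. The sequences of 4 windows are shown, each the 120 bases before the start. They were taken from the 13 windows whose 120 bases lie wholly outside the annotated gene: the 2 of core subunits, Ndufs8 and Ndufv2, and the 2 with a searched motif within these 120 bases, those of Ndufa11 and Ndufa7. Capitals mark a motif.
Ndufs8, chr19:3912775-3912894, minus strand: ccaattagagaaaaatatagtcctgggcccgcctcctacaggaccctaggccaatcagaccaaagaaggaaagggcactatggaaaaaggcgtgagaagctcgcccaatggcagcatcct
Ndufv2, chr17:66101560-66101679, minus strand: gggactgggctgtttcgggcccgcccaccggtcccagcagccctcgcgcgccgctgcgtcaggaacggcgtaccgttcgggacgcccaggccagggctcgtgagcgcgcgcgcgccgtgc
Ndufa11, chr17:56717642-56717761, plus strand: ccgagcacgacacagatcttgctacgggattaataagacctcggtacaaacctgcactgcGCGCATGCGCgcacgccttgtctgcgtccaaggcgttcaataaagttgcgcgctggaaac
Ndufa7, chr17:33824452-33824571, plus strand: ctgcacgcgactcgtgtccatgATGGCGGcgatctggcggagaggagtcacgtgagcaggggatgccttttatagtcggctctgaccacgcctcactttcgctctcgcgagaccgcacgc
In Ndufa11 the capitals mark the NRF1 motif GCATGCGC, which occurs there on both strands in overlapping positions. In Ndufa7 they mark the YY1 motif ATGGCGG. No searched motif lies in the printed bases of Ndufs8 or Ndufv2.

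Across the 34 windows the YY1 motif ATGGCGG, searched on both strands, was present in 9, or 26.5%, against 4.06% of all 32851 windows of that length. It occurred in Ndufa1, Ndufa5, Ndufa7, Ndufa9, Ndufb5, Ndufs4, Ndufs6 and Ndufs7, and in 5 of these 8 genes it began after the start. The windows of Ndufa7 overlap and hold the same site, so the 9 windows stand for 8 genes. The NRF1 motif GCATGCGC was in 8.82% of the windows, those of Ndufa6, Ndufa8 and Ndufa11, against 2.71% of all windows. Its longer form TGCGCATGC, which overlaps it, was in 5.88% against 1.52%. The ETS motif CCGGAAG was in 11.8% against 8.86%. AAGGTCA, the half-site of the oestrogen-related receptors, was in 8.82% against 4.72%, and the longer TCAAGGTCA was in none of them and in 0.423% of all windows. Each of these values is a count of letters in a window and not of bound factors.

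The deposited values are whole numbers that sum to between 999152 and 999382 in each library, so sequencing depth is unknown and values are comparable between libraries for 1 gene but not between genes. Transcripts of the mitochondrial genome took 19.9% to 24.1% of the total in wild type, 17.0% to 20.9% in saline mutants and 17.6% to 20.7% in treated mutants. The 36 genes together took 0.93% to 1.04%, 0.80% to 0.90% and 0.83% to 0.96%. Xist, the RNA of the inactive X chromosome, was above 0 in replicate 1 of the wild type, replicate 3 of the saline mutants and replicate 1 of the treated mutants. That treated library also had the Y-linked Ddx3y, with a value of 38, about as high as its Xist value of 39. Values without the Xist libraries of the compared groups are given where they move a result.

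Mybpc3, the mutated gene, read 1510, 1795 and 2039 in the wild-type libraries, 133, 142 and 186 in those of saline mutants, and 1024, 1374 and 1332 after treatment. The mean was thus 8.63% of wild type in saline mutants and 69.8% in treated mutants. It fell by 3.53 on the log2 scale in saline mutants (SE 0.157, adjusted p = 2.65e-05) and rose by 3.01 with treatment (SE 0.163, adjusted p = 0.000254). The treated and wild-type groups did not overlap, with a log2 fold change of -0.52 (SE 0.158) and an adjusted p of 0.231. Adjusted p-values here and below are from limma on log2(value + 1), corrected by the Benjamini-Hochberg method over all genes tested, and a gene was called at an adjusted p under 0.05.

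In saline mutants against wild type, 33 of the 36 genes had a log2 fold change below 0, against 40.9% of all genes tested, but none was called, against 7.71% of all genes. The median of the 36 was -0.19 and that of all 13632 genes was 0.07. In 18 of the 36, the highest saline mutant lay below the lowest wild-type library, which held for 8.78% of all genes, and in none did the saline mutants lie wholly above. At an unadjusted p under 0.05, 11 of the 36 were lower, against 7.76% of all genes, and none was higher. The difference for the family was therefore small and shared by most members, and no single subunit passed the test. In 7 of 19 alternative analyses 1 to 3 subunits were called, always among Ndufs4, Ndufs7 and Ndufs8. The median was -0.11 without wild-type replicate 1. It was -0.086 without wild-type replicate 1 and saline mutant replicate 3, the libraries of these groups that have Xist. In whole-heart RNA, fewer cells of a type and less RNA per cell cannot be told apart.

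**Figure D1:**
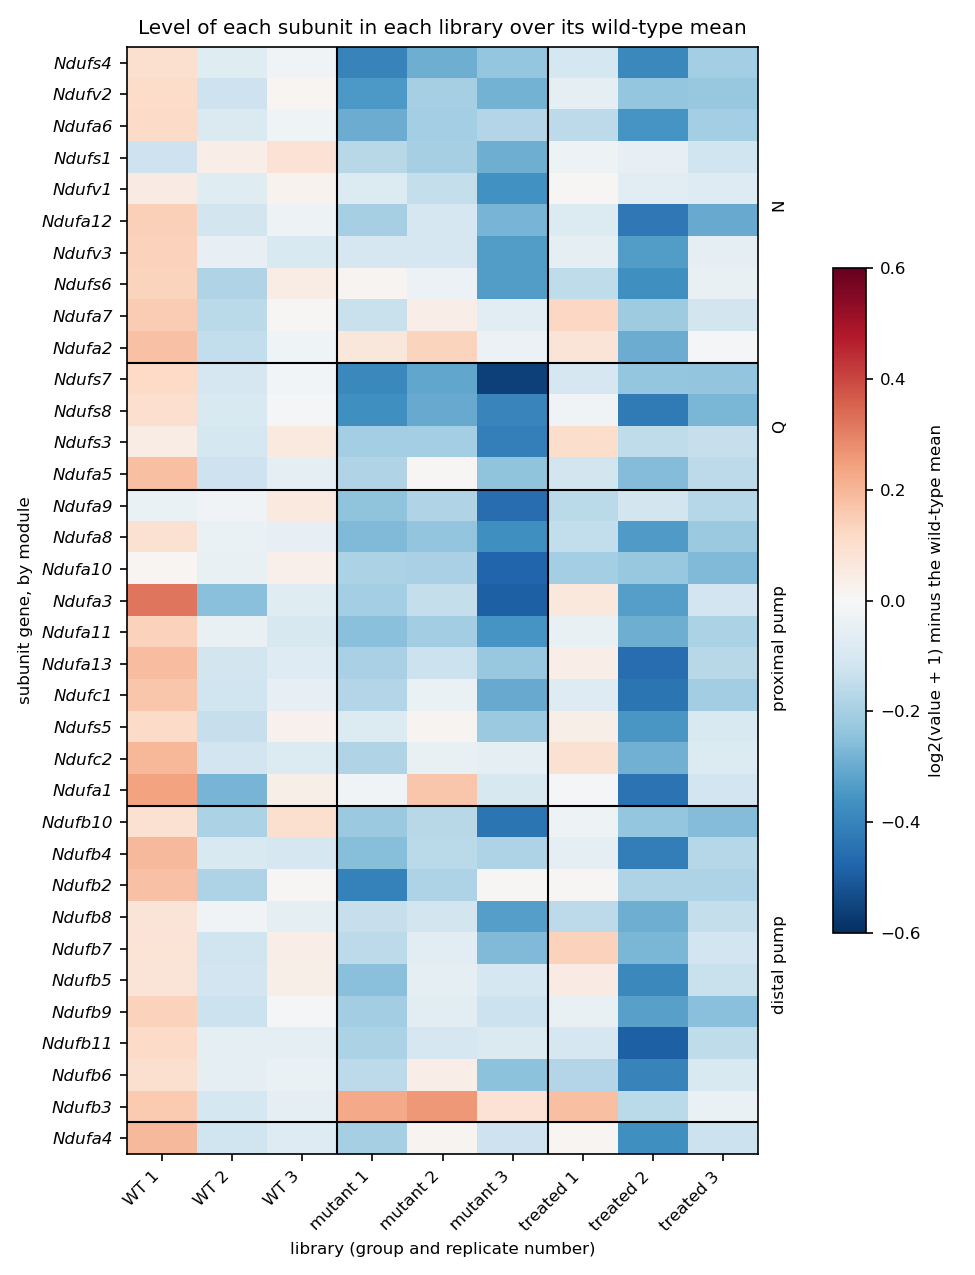
Each row is 1 of 35 of the genes, grouped by module with Ndufa4 last, and each column 1 library; colour is log2(value + 1) minus the gene's wild-type mean. Most rows are blue in the 3 saline mutants, Ndufb3 is red there, and replicates 1 and 2 of the wild type stand above and below their group in most rows.

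The core subunits were lower in saline mutants in 7 of 7 genes, and in all 7 the groups did not overlap. Their median log2 fold change was -0.28. The Q module held the lowest values. Ndufs7 lines the pocket where ubiquinone is bound, and Ndufs7 and Ndufs8 carry iron-sulfur clusters at the end of the electron path.

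Ndufs7 (ENSMUSG00000020153, GRCm38 chr10:80249121-80256794, plus strand) read 286, 245 and 260 in the wild-type libraries, 201, 212 and 178 in those of saline mutants, and 245, 224 and 223 after treatment. All saline mutants were below all wild-type and treated libraries, and the treated group touched the wild type at 245. Its log2 fold change in saline mutants was -0.42 (SE 0.108), to 74.7% of the wild-type mean, and its adjusted p of 0.0505 was the smallest in the family and just over the threshold. With treatment it was 0.23 higher than in saline mutants (SE 0.106, adjusted p = 0.616).

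Ndufs8 (ENSMUSG00000059734, chr19:3908863-3912774, minus strand) stood at 209, 183 and 194 in wild type, 151, 158 and 148 in saline mutants, and 192, 145 and 161 after treatment. The treated libraries were spread over the range of both other groups. The log2 fold change in saline mutants was -0.36 (SE 0.0943, adjusted p = 0.0584), and against these the treated group was at 0.11 (SE 0.121).

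Ndufs3, a structural core protein of the Q module, read 309, 278 and 312, then 260, 260 and 225, then 322, 269 and 272 in the 3 groups in that order. Its saline mutants lay below both other groups, which overlapped each other, with -0.27 in saline mutants and 0.21 with treatment, and an adjusted p of 0.179 and 0.683.

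Of the N module core subunits, Ndufv1 and Ndufs1 differed less than Ndufs3, while Ndufv2, at -0.28, was close to Ndufs3 at -0.27. Ndufv1, which binds NADH and the flavin, was 705, 647 and 692 in wild type, 644, 617 and 529 in saline mutants and 685, 651 and 646 after treatment. The saline mutants lay below wild type by a narrow gap, at a log2 fold change of -0.20 (SE 0.108, adjusted p = 0.375). Ndufs1, which carries several of the iron-sulfur clusters that lead away from the flavin, was 567, 634 and 655, then 551, 537 and 504, then 605, 596 and 569, a log2 fold change of -0.22 in saline mutants (adjusted p = 0.269). Ndufv2, the partner of Ndufv1 with an iron-sulfur cluster of its own, was 496, 421 and 463, then 361, 399 and 377, then 440, 390 and 392. Its saline mutants all lay below wild type (-0.28, SE 0.101, adjusted p = 0.162), and its treated libraries overlapped both other groups.

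Among the 28 accessory genes, 25 were below 0 in saline mutants, 11 did not overlap with wild type, and the median was -0.18. Ndufs4, an N module protein whose loss gives a Leigh-like disease in mice, was 206, 183 and 190 in wild type, 146, 157 and 164 in saline mutants and 179, 147 and 167 after treatment. It had the lowest accessory value, -0.31 (SE 0.0969, adjusted p = 0.106), and the treated libraries stayed below all wild-type libraries. Ndufa9, which sits where the Q module meets the membrane arm, was 449, 454 and 481, then 390, 407 and 336, then 412, 427 and 410. It was the 1 accessory gene whose treated libraries all lay above the saline mutants, at 0.14 (SE 0.107, adjusted p = 0.75), and they also all lay below wild type.

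Ndufa8, Ndufa10 and Ndufa11 of the proximal pump module were at -0.29, -0.29 and -0.27 in saline mutants, each without overlap. Ndufa8 read 329, 300 and 298 in the wild-type libraries, 257, 262 and 239 in those of saline mutants, and 279, 244 and 264 after treatment. Both mutant groups were below the wild type and overlapped each other.

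The 3 genes that were not lower in saline mutants were all small accessory subunits. Ndufb3, of the distal pump module (ENSMUSG00000026032, chr1:58586384-58595964, plus strand), was 124, 103 and 107 in wild type, 130, 133 and 118 in saline mutants and 126, 99 and 108 after treatment. It had the highest value of the family, 0.19 (SE 0.108, adjusted p = 0.388), and the groups overlapped. Ndufa2, an N module protein with a thioredoxin-like fold, was 139, 111 and 121, then 129, 135 and 120, then 130, 100 and 122, at 0.05 (SE 0.112). Ndufa1, a membrane protein of the proximal module encoded on the X chromosome, was 118, 82 and 102, then 98, 112 and 93, then 99, 73 and 92, at 0.02 (SE 0.145). For these 3 genes every pair of groups overlapped.

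**Figure D2:**
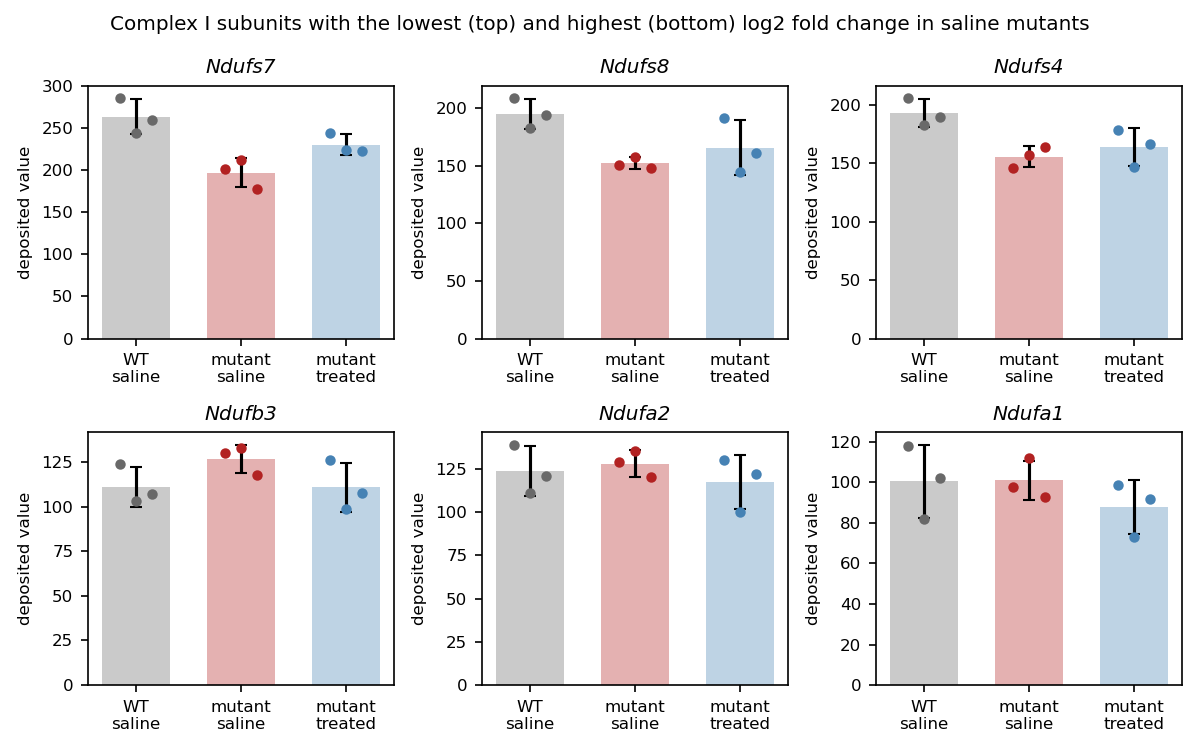
Bars are group means and error bars SD over the 3 libraries (points) in deposited units; the top row has the 3 subunits with the lowest and the bottom row the 3 with the highest log2 fold change in saline mutants. In the top row the saline mutants lie below every wild-type library, as for Ndufs7 at 178 to 212 against 245 to 286, and in the bottom row the groups overlap.

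By module, the median in saline mutants was -0.29 in the Q module, where 5 of 5 genes were below 0 and 4 did not overlap with wild type. It was -0.23 in the proximal pump module, with 9 of 10 below 0 and 5 without overlap, and -0.19 in the N module, with 9 of 10 below 0 and 6 without overlap. The distal pump module had the median nearest to 0, at -0.15, with 9 of 10 below 0 and 3 without overlap. The differences between modules were not tested. Ndufb2 of the distal module had values of only 5 to 8, where 1 unit of rounding is a large step. Exons of 15 of the 36 genes overlap an exon of another gene, 13 of them one on the other strand, and whether the counting used strand is not given in the sources used here. These include Ndufs1, Ndufs3, Ndufa2, Ndufa9, Ndufa11, Ndufb2 and Ndufb11. Their values may hold reads of a neighbour or lack reads that both genes share, and neither was tested.

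In treated against saline mutants, the question was whether the subunits differed after the editor had been given. The family was evenly split: 18 genes were below and 18 above 0, against 54.0% of all genes below 0, and the median was -0.00094 beside -0.02 over all 13636 genes. None was called, against 0.0293% of all genes, which is 4 genes, and none had an unadjusted p under 0.05. The split was not stable, with 4 to 27 genes below 0 over the 19 alternatives, 4 with the length trend removed and 27 without the libraries that have Xist. The number below 0 was 10 with median-of-ratios and 12 with upper-quartile factors. It was 6 without treated replicate 2, 21 without treated replicate 1, and 11 without replicate 2 of the saline mutants. In 6 genes all treated libraries lay above all saline mutants, which held for 5.48% of all genes, among them Ndufs1, Ndufs3, Ndufs7, Ndufv1 and Ndufa9. In none did they lie wholly below.

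The core genes lay on 1 side of 0 in this comparison and the accessory genes on both. All 7 core genes were above 0, from 0.10 for Ndufv2 to 0.23 for Ndufs7, with a median of 0.15. The Q module, which holds 4 of them, was at 0.21. Of the 28 accessory genes, 11 were above and 17 below 0, and the median was -0.01. The lowest were Ndufa1 at -0.20 (SE 0.139), Ndufb3 at -0.20 (SE 0.119) and Ndufa2 at -0.13 (SE 0.123), which are also the 3 that were not lower in saline mutants; the 2 comparisons share the saline mutant libraries.

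Within a library, the median level of the core minus that of the accessory genes, each over its wild-type mean, was -0.09, 0.02 and 0.05 in wild type, -0.03, -0.10 and -0.16 in saline mutants and 0.03, 0.18 and 0.02 after treatment. The treated libraries were all above the saline mutants, and the wild type overlapped both; this difference was not tested. Treated replicates 1 and 2 stood apart on opposite sides. Replicate 2 was the lowest of its group in 28 of the 36 genes, and without it the family's median was 0.10 above the saline mutants. Replicate 1 was the highest in 31, and without it the family's median was -0.04. With the libraries that have Xist left out, a choice made after the data were seen, the median was -0.08 and Ndufs8 moved from 0.11 to -0.02. The direction of the family with treatment therefore depends on which libraries are used.

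**Figure D3:**
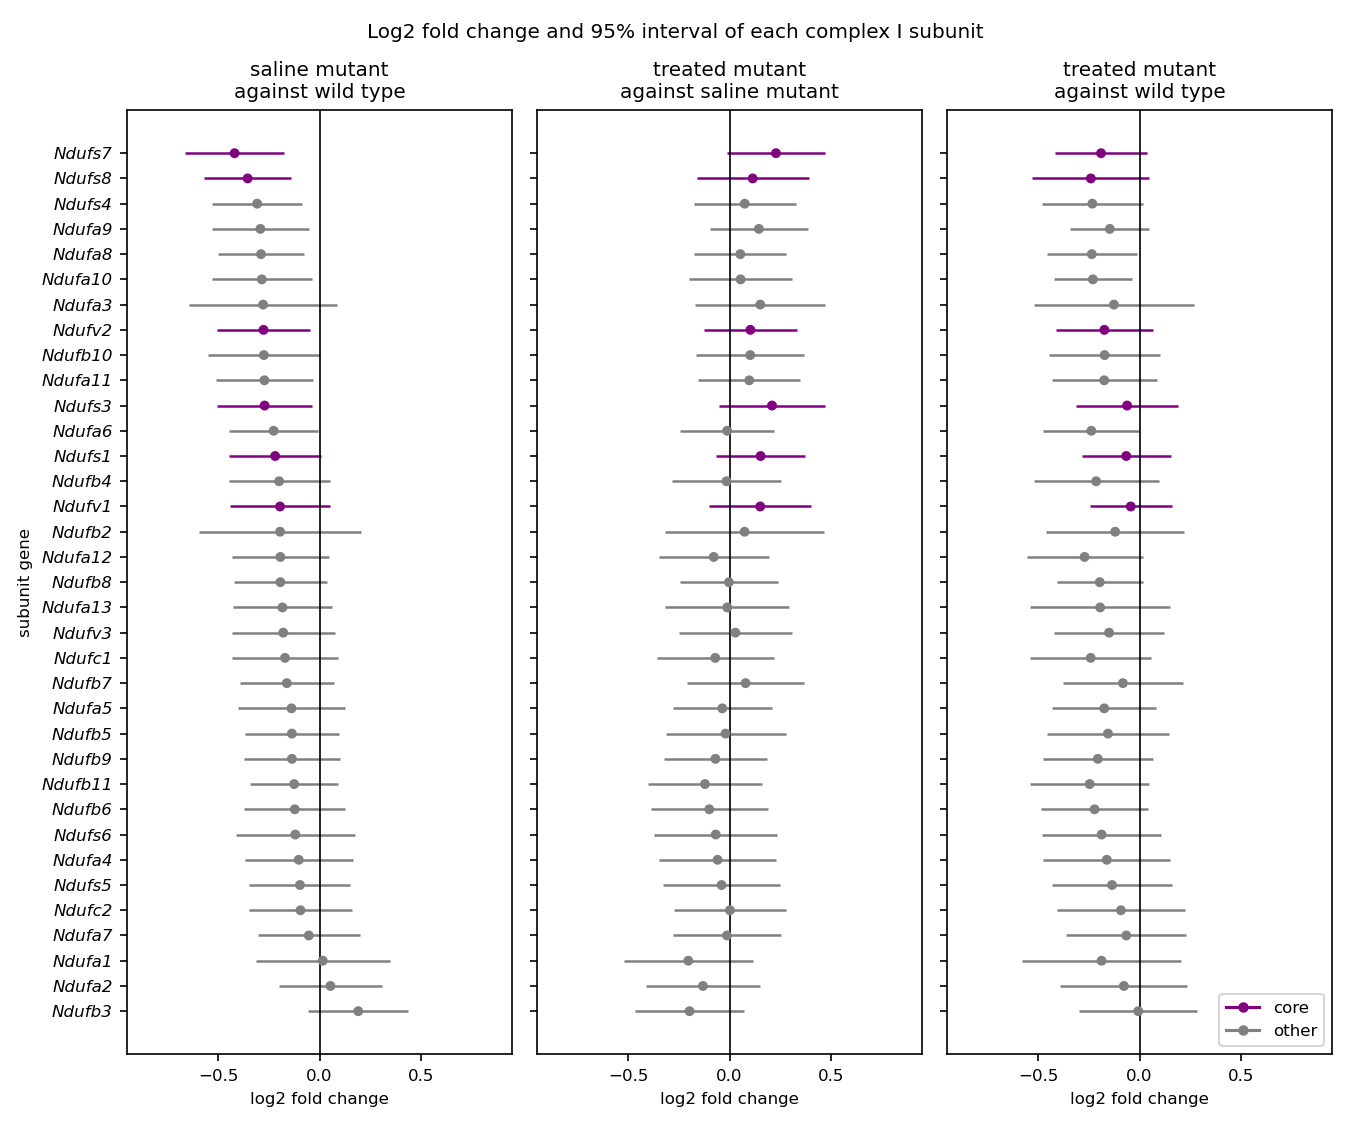
Points are log2 fold changes and lines 95% intervals of 35 of the genes in 3 comparisons, ordered by the first; purple marks the core genes and grey the others. In the middle panel the core genes all lie right of 0 and every interval spans 0, and in the right panel all points lie left of 0.

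Treated mutants against wild type showed all 36 genes below 0, against 48.6% of all genes, at a median of -0.17 beside 0.01 over all 13554 genes. Without wild-type replicate 1, 31 were below 0 at a median of -0.12, and without treated replicate 2, 31 at a median of -0.11. None was called, against 0.989%. The 3 genes with an unadjusted p under 0.05, Ndufa10, Ndufa8 and Ndufa6, were lower, as were 4.78% of all genes. In 8 genes the treated libraries all lay below wild type, against 5.43% of all genes, and these were all accessory. The core median was -0.08 and the accessory median -0.18.

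The lowest in this comparison were Ndufa12, Ndufb11 and Ndufc1. Ndufa12, an N module subunit that takes the place of an assembly factor late in assembly, was 161, 135 and 143 in wild type and 138, 108 and 118 in treated mutants, at -0.27 (SE 0.123, adjusted p = 0.419). Ndufb11, an X-linked distal subunit, was 294, 261 and 260 against 253, 193 and 244, without overlap (-0.25, SE 0.127, adjusted p = 0.485). Ndufc1, a membrane subunit, was 165, 135 and 142 against 139, 108 and 127 (-0.24, SE 0.128), and overlapped. In all 3 genes treated replicate 2 was the lowest library.

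At the other end, Ndufb3 was at -0.01, Ndufv1 at -0.04 (SE 0.0872) and Ndufs3 at -0.06 (SE 0.108). The 95% interval of Ndufv1 ran from -0.25 to 0.16. Ndufs7 stood at -0.19 (SE 0.0981) and Ndufs8 at -0.24 (SE 0.124), with adjusted p of 0.488 for both.

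Libraries differed in a way shared by most of the family. Wild-type replicate 1 was the highest of its group in 30 genes and replicate 2 the lowest in 28. Saline mutant replicate 2 was the highest in 25 and replicate 3 the lowest in 25. Treated replicate 1 was the highest in 31. Across the 36 genes, the deviation from the group mean was set against the log2 of the median annotated transcript length, with a Pearson r of -0.62 in wild-type replicate 1, 0.51 in wild-type replicate 2, -0.50 in saline mutant replicate 2 and 0.61 in treated replicate 2. It was 0.32 in wild-type replicate 3, -0.39 and -0.43 in treated replicates 1 and 3, and only 0.10 and 0.13 in saline mutant replicates 1 and 3. The points of each library share its preparation and total, so these are descriptions. Core transcripts have a median length of 1312 bases and accessory transcripts one of 674.5, so length moves with the division into core and accessory. With the length trend removed, another choice made after the data were seen, the median with treatment was 0.10 and that of treated mutants against wild type -0.11. The part of length in the core and accessory values was not tested further.

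**Figure D4:**
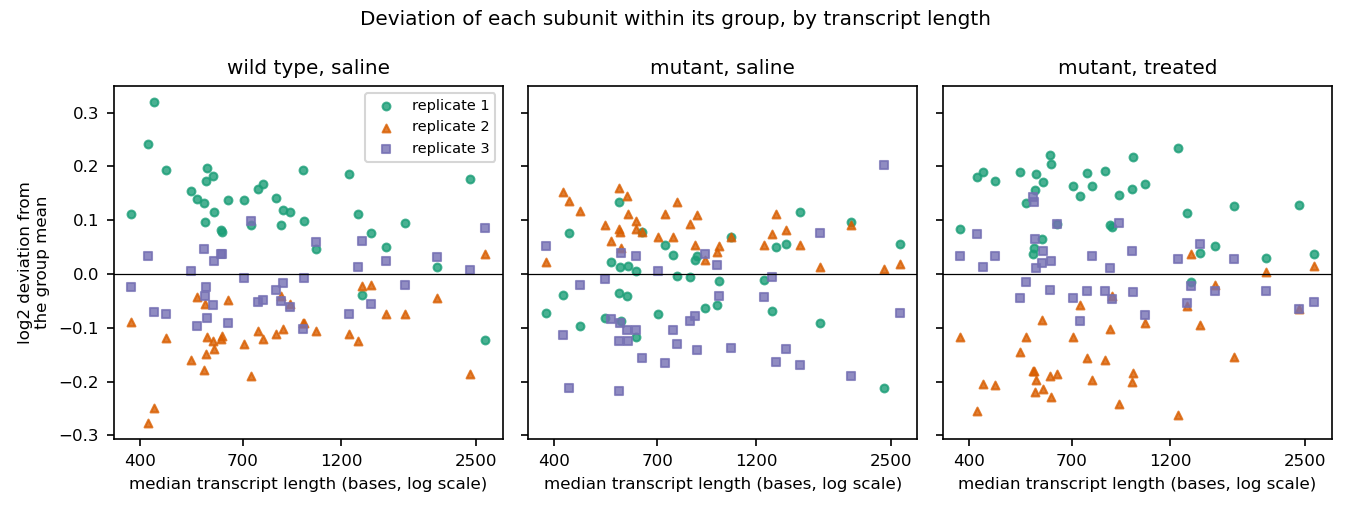
Each point is 1 of 35 of the genes in 1 library, by median transcript length in bases (log axis) and log2 deviation from the mean of its group. Short transcripts lie high in wild-type replicate 1 and low in treated replicate 2, where r was -0.62 and 0.61.

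The other mitochondrial lists moved with the family to different degrees. In saline mutants, 37 of 41 nuclear subunits of complexes II to V were below 0, with a median of -0.20, and 2 of them fell, beside 429 of all 13632 genes that were called lower. These were Sdhc, a membrane anchor of succinate dehydrogenase, at 480, 432 and 430 against 328, 326 and 301 (-0.49, adjusted p = 0.0162), and Cox7a1, the heart and muscle form of a complex IV subunit, at 294, 259 and 257 against 181, 185 and 133 (-0.71, adjusted p = 0.0173). Among 20 mainly matrix and outer membrane genes outside the chain, 15 were below 0 and the median was -0.14. Of these, Suclg1, a subunit of the citric acid cycle enzyme succinyl-CoA ligase, fell by 0.50 (adjusted p = 0.0131). Most genes of these lists were thus also below 0. The calls were 2 of 41 and 1 of 20 genes, beside 429 of all 13632 genes called lower. Of 19 complex I assembly factors tested, 17 were below 0 with a median of -0.13 and none was called.

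With treatment, 14 of 19 assembly factors, 25 of 41 subunits of complexes II to V and 16 of the 20 mainly matrix and outer membrane genes were above 0. The medians were 0.08, 0.02 and 0.10, with none called. Against wild type their medians were -0.04, -0.15 and -0.08. By median, complexes II to V lay near the accessory subunits in both comparisons, and the list of 20 genes nearer the core. Ndufab1, the acyl carrier protein that is both a complex I subunit and a member of mitochondrial fatty acid synthesis, falls outside the symbol rule; it was at -0.24 in saline mutants (SE 0.0935, adjusted p = 0.189) and at 0.05 with treatment.

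Of the 7 mitochondrially encoded complex I subunits, 6 were below 0 in saline mutants, 5 in treated against saline mutants and 7 in treated mutants against wild type. Of all genes tested, 40.9%, 54.0% and 48.6% were below 0. The medians of the 7 were -0.10, -0.47 and -0.47, and their difference from the nuclear subunits was not tested. In treated mutants against wild type, mt-Nd4l fell by 1.07 (adjusted p = 0.0237), at 236, 240 and 202 against 124, 103 and 95, and mt-Nd3 fell by 1.29 (adjusted p = 0.0487), at 124, 207 and 132 against 62, 50 and 72. Both were called lower in that comparison, as were 17 of all 13554 genes. Saline mutant replicate 1 had an mt-Nd3 value of 527, far above the other saline mutants at 74 and 80. These RNAs were read from a poly(A) selection.

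**Figure D5:**
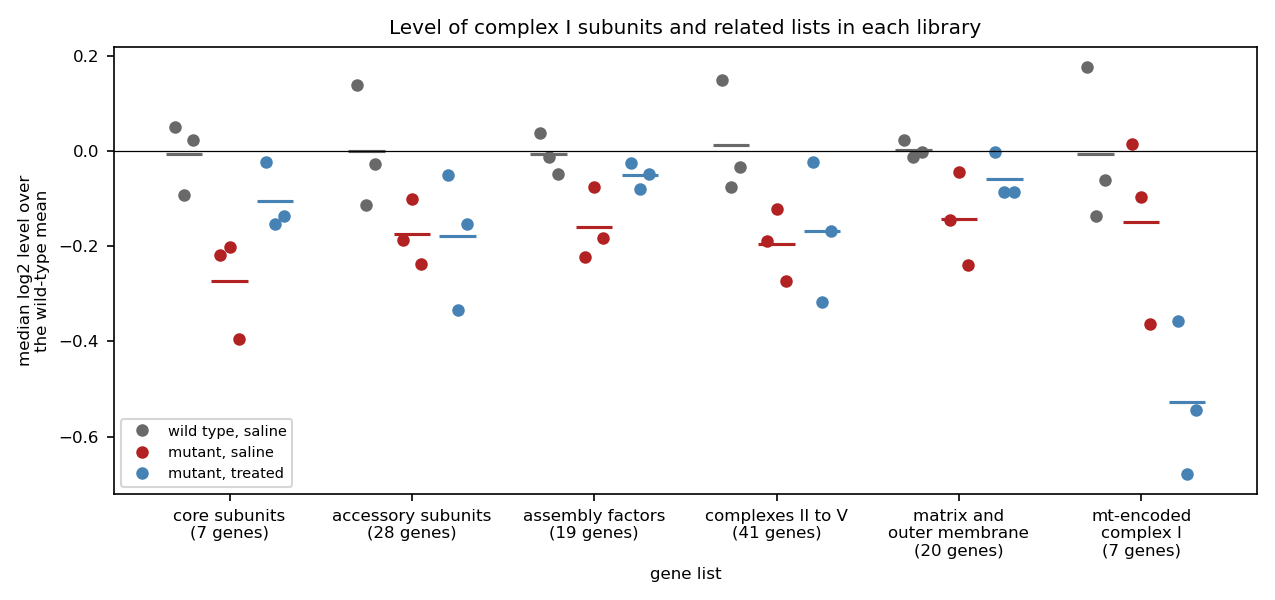
Each point is 1 library, the median over a list of log2(value + 1) minus the wild-type mean, and lines are group means. By mean, core subunits of treated mutants lie between the other groups, accessory subunits of both mutant groups overlap, and mitochondrially encoded subunits are lowest in treated mutants, from -0.68 to -0.36, where the highest library touches the lowest saline mutant.

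Among 15 regulators of nuclear respiratory genes, which include Ppargc1a, Esrra, Nrf1 and Gabpa, none was called in any comparison and the medians were 0.03, 0.04 and 0.04. Esrra, an oestrogen-related receptor, was at -0.08 (SE 0.102) in saline mutants, and Ppargc1a, a coactivator, at 0.16 (SE 0.162). The 15 ranged there from -0.14 to 0.47, with 7 below and 8 above 0. At an unadjusted p under 0.05, limma had 0, 3 and 1 of the 15 in the 3 comparisons. Of all genes tested, 2706 of 13632, 1130 of 13636 and 1697 of 13554 had such a p. In treated against saline mutants the 15 ranged from -0.63 to 0.48. In treated mutants against wild type they ranged from -0.15 to 0.64.

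Marker transcripts of other cells also differed between the groups. All 5 red blood cell markers were below 0 in saline mutants, at a median of -1.36. Of these, 2 were called lower, as were 429 of all 13632 genes. Both had low values, where rounding is a large step. Alas2 was at 9, 11 and 4 in wild type against 2, 2 and 3, and Hba-a2 at 6, 6 and 3 against 2, 2 and 1. The summed level of the 5 markers was 104 to 313 in wild type, 69 to 85 in saline mutants and 140 to 158 in treated mutants. Of 7 fibroblast markers, 5 were above 0, with sums of 3076 to 4065, 3571 to 4760 and 3593 to 3763. Col1a1 and Col1a2 rose, by 0.93 and 0.91, and 622 of all 13632 genes were called higher. All 7 macrophage markers were above 0 with none called, at sums of 272 to 358, 288 to 546 and 238 to 365. No marker of these 3 lists was at 0 throughout a group. The 9 cardiomyocyte markers had a median of 0.04, with sums of 47846 to 56198, 48834 to 59703 and 51179 to 55399. They were split, with 4 below and 5 above 0, from -0.50 to 0.32, and none was called. At an unadjusted p under 0.05, limma had 4 of the 9, beside 2706 of all 13632 genes. The 7 endothelial markers were all below 0 with none called, at a median of -0.17 and sums of 939 to 1285, 853 to 979 and 900 to 1009. Acta1, a skeletal actin that the heart also expresses, rose by 3.56 in saline mutants and fell by 2.34 with treatment. Adipocytes could be judged by 1 marker only, with a value of 0 or 1. In treated against saline mutants, 6 of 7 fibroblast markers were below 0, at a median of -0.46. All 7 macrophage markers were below 0 there, at -0.42, and all 5 red blood cell markers above, at 0.90. At an unadjusted p under 0.05, limma had 5, 0 and 5 of these 3 lists, beside 1130 of all 13636 genes. None of these markers was called with treatment. The part of these cells in the lower subunit values was not tested.

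The authors' deposited tables gave a similar picture on their own scale. In saline mutants against wild type, the authors' deposited table had 35 of 36 genes below 0. Their median log2 fold change was -0.26, beside 0.002 over all 15589 genes. In the column headed padj, which holds unadjusted values, 8 of the 36 had a p under 0.05, as had 975 of all 15589 genes. The 8 included Ndufa8, Ndufa9, Ndufa10, Ndufs4, Ndufs7, Ndufs8 and Ndufv2. For the other 2 comparisons the authors' deposited tables gave medians of 0.05 and -0.20. None of the 36 had a p under 0.05 there, which 210 of 15580 and 424 of 15418 genes had. After a Benjamini-Hochberg correction of the authors' deposited p-values none of the 36 passed in any comparison, and none was in the authors' shorter deposited lists of 689, 137 and 317 genes.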

How the data were processed

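Hearts of 9 libraries in 3 groups of 3 were compared. The deposited values are whole numbers with no unit in the file headers; they were treated as a score that the authors had already scaled to a near-constant library total. The submitters' processing notes name mm10, HISAT2, HTSeq and DESeq2, without roles. The log2 fold changes and p-values in the authors' deposited tables were used only where named; their column headed padj equals the unadjusted normal p-value of fold change over standard error.

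Because the values are not counts, no count model was used. Each pair of groups had its own limma fit (limma 3.58.1, R 4.3.3) on log2(value + 1), for genes with a mean of at least 1 over the 6 libraries. Residual variances were not allowed below that of rounding to whole numbers (1/12, carried to the log scale), followed a mean trend, and the prior was estimated from genes with a mean of at least 30; this step comes from an earlier analysis of these data, made after they were seen. Adjustment was over all genes. Fold changes of low genes are understated by the pseudocount. The method was tested on simulated data.

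The members and gene lists were chosen with earlier results of these data known. Genes named are the core subunits, the 3 lowest and 3 highest subunits of each comparison and Mybpc3; Ndufa6, Ndufa8, Ndufa9, Ndufa10, Ndufa11, Ndufb2, Ndufab1 and the regulators were singled out after their values were seen. One subunit is in the counts and medians but is not reported here by itself. Nothing states that the libraries of a group are separate animals, so p-values measure the spread between these samples, which may be technical. Overlaps and transcript lengths are from GENCODE M21 (GRCm38). How reads shared by near-identical copies were counted is not given in the sources used here. In all, 19 alternatives per comparison were run.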

Additional observations from a re-analysis of the deposited data

How the results depend on the processing

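For saline mutants against wild type, the median of the 36 subunits was below 0 under all 19 alternatives, from -0.28 to -0.09, and the number below 0 ran from 28 to 35. No subunit was called in 12 of them. Those called otherwise were 3 with upper-quartile factors (Ndufs4, Ndufs7, Ndufs8), 2 with mitochondrial transcripts left out and 2 with the prior from all genes (Ndufs7 and Ndufs8 in both), 1 with a mean of at least 10 and 1 in a single fit over all 9 libraries (Ndufs7 in both), and 1 without the rounding floor (Ndufs8). With the transcript-length trend removed, 2 were called (Ndufs4 and Ndufs8). With the Xist libraries of these groups left out, wild-type replicate 1 and saline mutant replicate 3, the median was -0.086 and 28 genes were below 0. Both of these settings were chosen after seeing the data. The cause of these differences was not tested. Leaving out 1 library at a time gave 0 called and medians of -0.23 to -0.11, the last without wild-type replicate 1.

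With treatment, no subunit was called under any alternative, and the median was below 0 in 13 of 19, from -0.08 to 0.10, with 4 to 27 subunits below 0. Treated mutants against wild type had no call and medians of -0.26 to -0.11, with 31 to 36 subunits below 0. Over all genes, the number called ran from 528 to 1333, from 2 to 35 and from 1 to 243 in the 3 comparisons. Of 855 single-gene results, 843 stayed on the same side of the threshold and 12 passed it newly; values near 0 could change sign, as for Ndufs8 with treatment, at -0.02 without the Xist libraries. Under the other scalings the all-gene median moved by at most 0.091.

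The replicate block, with the labels' replicate numbers as a term, gave 0 subunits called in each comparison and left the medians at -0.19, -0.00094 and -0.17; 824, 35 and 35 genes were called over all. Same-numbered libraries did not deviate together throughout (r from -0.42 to 0.62 over 4981 genes). For replicates 1, 2 and 3, r was -0.28, -0.035 and -0.42 between saline mutants and wild type. It was -0.08, 0.20 and 0.10 between treated and saline mutants, and 0.62, 0.18 and 0.03 between treated mutants and wild type. Deviations from means of 3 libraries cannot decide whether the numbers pair the samples, so this is not known. Depth is unknown, so no counting interval can be given.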
